A study of Mus musculus with 15 samples.

Results

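Macrophages sorted from mouse visceral fat as CX3CR1-low and CCR2-low were compared with cells sorted from blood and labelled monocytes. The comparison rested on 6 libraries, 3 of each kind, out of 15 in the series, and every library of these groups was taken. All of them came from C57BL/6 mice, with RNA isolated by the PicoPure kit from sorted cells. A companion set of 3 libraries from CX3CR1-high and CCR2-high fat macrophages stood in the same table and was used to set the scale of the spread and to place the CCR2-low levels. The remaining 6 libraries, made after infarction or no infarction, were not used here. The labels used here state neither the ages of the mice, nor the antibodies of the blood gate, nor whether the 3 replicates of a group came from separate animals, so p-values measure only the spread between these libraries, which may be technical. Each value is a deposited TPM (transcript abundance per unit of length, scaled to sum to 1000000 in every library), and values are given in the order of replicates 1, 2 and 3.

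Resident macrophages of fat take up dying cells, lipid and iron, and many of them persist in the tissue with little supply from blood. Blood monocytes are made in bone marrow; the classical kind carries CCR2 and Ly6C and enters inflamed tissue, and the nonclassical kind carries high CX3CR1 and patrols vessels. Primary (azurophil) granules, which hold myeloperoxidase and the serine proteases elastase, proteinase 3 and cathepsin G, are filled at the promyelocyte step in bone marrow, and transcription of their genes is largely shut off before cells leave for blood.

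The libraries labelled monocytes went against their label in part. Elane (neutrophil elastase), Mpo (myeloperoxidase) and the progenitor regulator Myb were high in all 3 of them, whereas the monocyte and macrophage genes Lyz2 and Csf1r were lower than in fat macrophages, and Ccr2 was no higher than in cells sorted as CCR2-low. They are therefore called the labelled monocyte libraries, and no other cell name is given to them. Sex-linked transcripts also differed between the groups. Xist, the RNA that coats the inactive X, was listed at 0 in all 3 CCR2-low libraries and at 22.3, 20.5 and 15.4 TPM in the labelled monocyte libraries, and Ddx3y, on the Y chromosome, was at 43.6, 58.7 and 53.6 TPM against 0.0127, 0.0117 and 0.0105 TPM. The effect of sex and that of cell type cannot be told apart between these groups. Replicates of a group agreed across genes, with Pearson r of log2(TPM + 1) from 0.9785 to 0.9831 in the CCR2-low group and from 0.9879 to 0.9942 in the labelled monocytes. Labelled monocyte replicate 1 stood apart in level: its median absolute log2 difference was 0.286 and 0.25 from replicates 2 and 3, which differed by 0.113, it held the highest value of its group for 66.1% of genes tested, and its TMM factor was 1.323 against 1.146 and 1.144. The 10 most abundant genes held 16.4% to 16.6% of TPM in the CCR2-low libraries and 8.44% to 9.13% in the labelled monocytes. Read depth is unknown, since TPM keeps none.

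Of 15467 genes at 1 TPM or more in at least 3 of the 9 steady-state libraries, 12225 (79%) passed the test at an adjusted p below 0.05 (limma on log2(TPM + 1), Benjamini-Hochberg over all genes tested, two-sided). Of these, 4397 (28.4%) were higher and 7828 (50.6%) lower in CCR2-low macrophages. TMM scaling, which shifted the median log2 difference of all genes by 0.33, from −0.40 to −0.07, gave 12090 calls (78.2%), 5751 higher (37.2%) and 6339 lower (41%). A call alone therefore separated little, and genes that also differed by at least 4-fold are counted as well. These were 2780 (18%), with 1389 higher (8.98%) and 1391 lower (8.99%), and under TMM scaling 2543 (16.4%), with 1641 higher (10.6%) and 902 lower (5.83%). In 12400 genes (80.2%) no CCR2-low library overlapped a labelled monocyte library. A log2 difference below is CCR2-low minus labelled monocyte on the log2(TPM + 1) scale, which understates the change of low genes, and no difference is given for a gene listed at 0 throughout a group; such members enter list medians at that value. A gene listed at 0 throughout a group could pass the 1 TPM filter only through the other libraries, so its direction was fixed in advance. A list member counts as measured where it reached that filter. Since these are bulk libraries, fewer cells of a type and less RNA per cell cannot be told apart.

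The sort markers come first. Ccr2, the receptor for the chemokine CCL2, stood at 66.3, 78.8 and 83.2 TPM in the CCR2-low libraries and 65.8, 54.8 and 56.2 TPM in the labelled monocytes, and at 436, 471 and 446 TPM in the CCR2-high macrophages. The CCR2-low libraries lay just above the labelled monocytes, without overlap, and far below the CCR2-high libraries. The log2 difference from the labelled monocytes was 0.36 (SE 0.11, adjusted p = 0.0104). It was 0.74 under TMM scaling (adjusted p = 1.79e-05) and, unscaled, 0.29 without CCR2-low replicate 3 (adjusted p = 0.0485). The log2 difference of CCR2-high from CCR2-low was 2.56 (SE 0.11, adjusted p = 1.27e-06). Cx3cr1, the receptor for fractalkine, was lowest in the CCR2-low libraries at 1.94, 1.59 and 2.55 TPM, against 20.6, 12.5 and 12.7 TPM in the labelled monocytes and 52.6, 70.3 and 78.1 TPM in the CCR2-high libraries. It was lower than in the labelled monocytes by a log2 difference of −2.40 (SE 0.21, adjusted p = 1.11e-06).

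The 4 marker genes of the comparison separated the groups completely. Timd4 (ENSMUSG00000055546, chr11:46810800-46844332), which encodes the phosphatidylserine receptor Tim-4 of long-lived resident macrophages, read 223, 217 and 185 TPM in the CCR2-low libraries and was listed at 0 in all 3 labelled monocyte libraries (adjusted p = 1.46e-12). Its level in the CCR2-high libraries, 31.6, 35.5 and 32.7 TPM, was lower than in CCR2-low by a log2 difference of −2.61 (SE 0.11, adjusted p = 1.27e-06). C1qb (ENSMUSG00000036905, chr4:136880129-136886187, minus strand), a chain of the complement recognition molecule C1q, read 6940, 6390 and 6060 TPM against 1.74, 1.85 and 1.75 TPM. The 3 CCR2-low libraries lay far above the labelled monocytes, and the mean TPM of these groups differed 3630-fold (log2 difference 11.18, SE 0.10, adjusted p = 3.88e-14). The CCR2-high libraries, at 4850, 5920 and 5850 TPM, were not called different from CCR2-low (log2 difference −0.23, adjusted p = 0.157). Cd209f (ENSMUSG00000051906, chr8:4102787-4105835), a C-type lectin of the DC-SIGN family whose reads may be shared with its close relative Cd209g, read 2980, 2360 and 2340 TPM against 0.0387, 0.214 and 0.128 TPM (log2 difference 11.14, SE 0.23, adjusted p = 1.26e-11). Elane (ENSMUSG00000020125, chr10:79886247-79888215) went the other way, at 0.284, 0.271 and 0.113 TPM in the CCR2-low libraries and 10000, 9610 and 12400 TPM in the labelled monocytes, a −13.09 log2 difference (SE 0.12, adjusted p = 3.88e-14). No library of one group crossed to the other for any of the 4 genes, and the same held for 80.2% of all genes tested. The 4 were taken as markers of this comparison, so their separation is a description and no test of it. For Timd4, at 0 in all labelled monocyte libraries, the direction was fixed in advance.

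**Figure D1:**
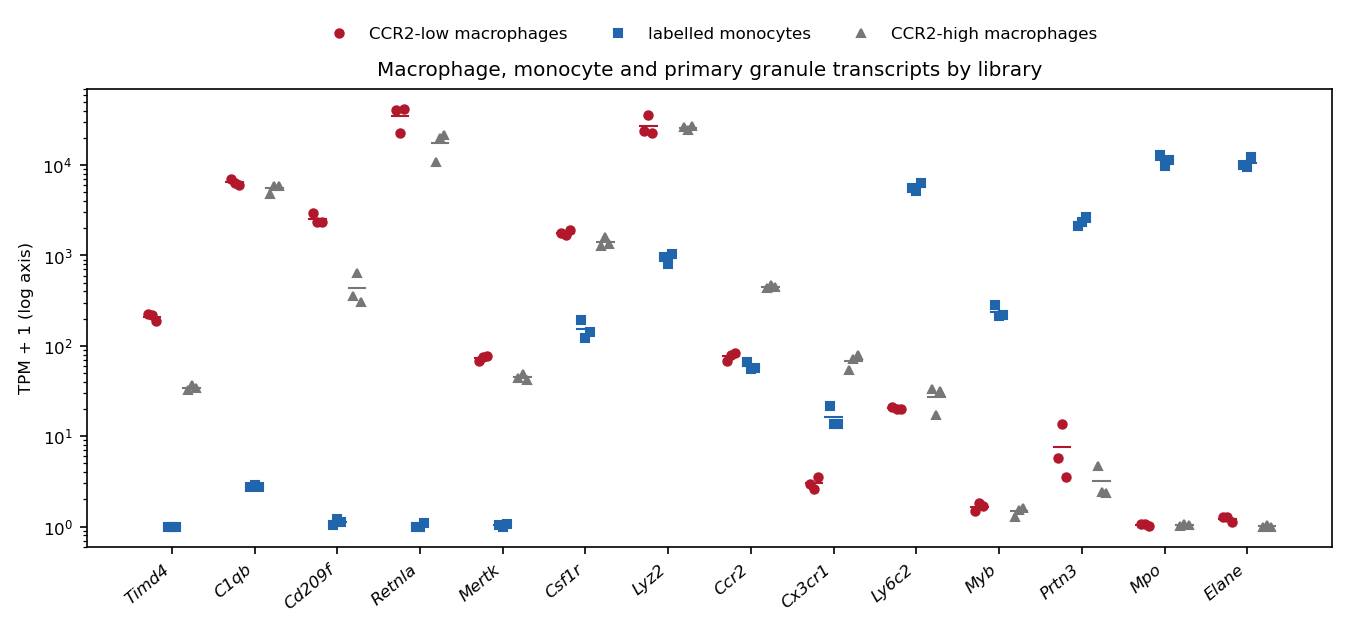
Level of 14 genes in each library, as TPM + 1 on a log axis; each point is a library, the short line the mean of 3, and colours mark CCR2-low, labelled monocyte and CCR2-high libraries. C1qb and Retnla are high in both macrophage groups and near 0 TPM in the labelled monocytes, and Mpo and Elane are high in the labelled monocytes alone among the 3 groups.

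The most abundant genes differed between the groups as well. In CCR2-low macrophages the highest mean TPM belonged to Retnla, the secreted protein RELM-alpha linked to alternative activation, at 41000, 22800 and 41300 TPM, against 0, 0 and 0.0816 TPM in the labelled monocytes (log2 difference 15.01, SE 0.27, adjusted p = 5.76e-12). Lyz2 (lysozyme), Cd74 (the MHC class II invariant chain) and Apoe (apolipoprotein E) were also among the 5 highest, each without overlap between the groups. Lyz2 read 23700, 35500 and 22900 TPM against 961, 810 and 1040 TPM (log2 difference 4.85, adjusted p = 8.45e-10). Apoe, a lipid carrier secreted by macrophages, read 13200, 19000 and 11500 TPM against 86.8, 76.9 and 71.8 TPM (log2 difference 7.49, adjusted p = 1.53e-10). Both were highest in CCR2-low replicate 2, whereas Retnla was lowest there. Among the labelled monocytes the 5 highest were the unnamed model Gm23935, Mpo, mt-Co3, Elane and the unnamed model Gm24270, and the direction of the 2 unnamed models depended on the scaling.

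Genes of tissue-resident macrophages were higher in CCR2-low cells as a group. All 22 measured members of the resident list were higher, 21 of them at 4-fold or more, against 28.4% and 8.98% of all genes. Their median log2 difference was 7.99, against −0.40 over all genes tested. The 22 include Timd4, Folr2 and Lyve1, which passed the filter through macrophage libraries alone. The direction of these members was therefore fixed in advance. Folr2, the folate receptor beta of resident macrophages, read 3000, 1960 and 2620 TPM and was listed at 0 in all 3 labelled monocyte libraries (adjusted p = 3.74e-12). Lyve1, a hyaluronan receptor, read 808, 409 and 698 TPM and was likewise listed at 0 in all 3 (adjusted p = 3.09e-10), with CCR2-low replicate 2 the lowest of the group. Cd163, the scavenger receptor for haemoglobin bound to haptoglobin, read 704, 546 and 846 TPM against 4.99, 3.65 and 3.67 TPM. It did not overlap between the groups (log2 difference 7.09, SE 0.29, adjusted p = 2.74e-09). Fcna, the lectin ficolin A, read 1870, 1230 and 1480 TPM against 0.904, 0.911 and 0.674 TPM (log2 difference 9.69, adjusted p = 3.92e-12). Selenop, the selenium carrier selenoprotein P, read 6940, 5540 and 8320 TPM against 60.7, 50.9 and 45.2 TPM (log2 difference 7.02, adjusted p = 5.18e-11). The 1 member short of 4-fold was F13a1, the clotting factor XIII A chain, which the labelled monocytes carried too, at 1010, 688 and 718 TPM against 2880, 2460 and 3410 TPM (log2 difference 1.86, SE 0.19, adjusted p = 4.62e-06). Between the macrophage subsets, a comparison that shares the CCR2-low libraries, 2733 of the 15467 genes were called (17.7%), and 21 of the 22 resident genes were lower in CCR2-high (8.74% of all genes) and 0 higher (8.93%).

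Core macrophage genes followed, with 18 of 20 higher, 16 at 4-fold, and a median log2 difference of 3.92. Over all genes tested 28.4% were higher and 8.98% were higher at 4-fold. Mertk, a receptor for the uptake of dying cells, read 67.2, 73.8 and 75.2 TPM against 0.0273, 0 and 0.0562 TPM (log2 difference 6.15, SE 0.11, adjusted p = 4.97e-12). Adgre1, the F4/80 antigen, read 619, 746 and 692 TPM against 9.44, 6.64 and 7.21 TPM (log2 difference 6.30, SE 0.13, adjusted p = 1.28e-11). Csf1r, the receptor for the growth factor CSF1 on which monocytes and macrophages depend, was present in both groups, at 1750, 1700 and 1930 TPM against 190, 121 and 141 TPM (log2 difference 3.59, SE 0.16, adjusted p = 4.48e-09). For all 3 the groups were apart, and of the 3 only Csf1r stood above 100 TPM in the labelled monocytes. Fcgr1, the high-affinity receptor for IgG, was higher by a log2 difference of 4.95 (SE 0.12, adjusted p = 5.15e-11). The 2 lower members were Cx3cr1, given above, and Mpeg1, the pore-forming protein perforin-2. Mpeg1 read 26.7, 26.2 and 33 TPM in the CCR2-low libraries, 65, 47 and 44.5 TPM in the labelled monocytes and 248, 158 and 203 TPM in the CCR2-high macrophages (log2 difference from the labelled monocytes −0.83, adjusted p = 0.00145).

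Complement genes were among the widest differences. Of 21 measured members 19 were higher and 0 lower (1 lower without CCR2-low replicate 2), 16 at 4-fold, with a median log2 difference of 3.77. The shares over all genes were 28.4% higher, 50.6% lower and 8.98% higher at 4-fold. C1qa, C1qb and C1qc, the 3 chains of C1q, lie side by side on chromosome 4. C1qc (chr4:136889804-136893065, minus strand) read 3540, 2960 and 3140 TPM against 0.368, 1.18 and 0.657 TPM (log2 difference 10.88, adjusted p = 2.06e-12). C1qa (chr4:136895917-136898803, minus strand) read 4530, 3740 and 3970 TPM against 0.853, 1.83 and 0.985 TPM (log2 difference 10.86, adjusted p = 2.39e-12). The 3 genes kept the same order of level, C1qb above C1qa above C1qc, in all 3 CCR2-low libraries. C4b, the complement component cleaved by C1s, read 570, 836 and 576 TPM against 0.177, 0.315 and 0.283 TPM (log2 difference 9.02, SE 0.14, adjusted p = 2.76e-12), with the limit that its near-identical neighbour C4a can share reads. C5ar1, the receptor for the fragment C5a, read 876, 715 and 790 TPM against 0.829, 0.975 and 0.702 TPM (log2 difference 8.76, adjusted p = 1.88e-12). C3, the central component, read 21.2, 107 and 27.1 TPM against 97.8, 62 and 84.2 TPM and did not pass (adjusted p = 0.0894), with CCR2-low replicate 2 above all labelled monocyte libraries and replicates 1 and 3 below them.

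The promoters of 2 C1q genes and of 2 granule genes are shown because the C1q genes were among the widest differences in favour of the macrophages and the granule genes among the widest in favour of the labelled monocytes. Each window runs from 250 bases before to 50 after the RefSeq start in GRCm38.p6, the assembly named mm10, on the strand of the gene. Capitals mark every match, on either strand, to 6 motifs: GAGGAA (the core bound by PU.1), TTGCNNAA (C/EBP), TGCTGAC (part of the MAF site), TAACNG (MYB), TGANTCA (AP-1) and TATAAA (the TATA box). The C1qb and C1qc windows are chr4:136886151-136886450 and chr4:136892865-136893164, both on the minus strand, and those of Mpo and Elane are chr11:87793534-87793833 and chr10:79886062-79886361, both on the plus strand.
C1qb: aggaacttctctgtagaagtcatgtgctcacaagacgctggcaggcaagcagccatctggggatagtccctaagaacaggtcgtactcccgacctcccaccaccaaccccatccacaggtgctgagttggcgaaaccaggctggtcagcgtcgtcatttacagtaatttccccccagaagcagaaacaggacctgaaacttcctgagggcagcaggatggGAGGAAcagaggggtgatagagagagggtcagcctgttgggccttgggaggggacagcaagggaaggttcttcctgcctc
C1qc: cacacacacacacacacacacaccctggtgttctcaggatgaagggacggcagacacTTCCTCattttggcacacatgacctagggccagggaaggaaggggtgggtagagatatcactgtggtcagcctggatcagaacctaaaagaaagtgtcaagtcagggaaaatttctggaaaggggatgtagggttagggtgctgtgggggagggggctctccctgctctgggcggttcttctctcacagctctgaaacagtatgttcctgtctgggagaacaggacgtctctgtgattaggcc
Mpo: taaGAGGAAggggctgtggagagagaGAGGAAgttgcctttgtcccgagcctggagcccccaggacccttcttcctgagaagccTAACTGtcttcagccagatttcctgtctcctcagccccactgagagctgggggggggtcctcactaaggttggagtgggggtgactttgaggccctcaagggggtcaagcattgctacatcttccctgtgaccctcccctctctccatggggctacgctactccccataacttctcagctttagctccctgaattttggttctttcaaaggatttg
Elane: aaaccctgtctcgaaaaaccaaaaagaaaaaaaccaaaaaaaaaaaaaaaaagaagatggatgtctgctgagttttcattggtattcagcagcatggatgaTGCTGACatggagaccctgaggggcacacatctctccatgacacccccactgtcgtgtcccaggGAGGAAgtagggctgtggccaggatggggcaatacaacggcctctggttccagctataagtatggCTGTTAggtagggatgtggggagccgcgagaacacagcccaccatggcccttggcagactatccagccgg
GAGGAA was found in all 4 windows shown, once in C1qb, C1qc and Elane and at 2 places in Mpo, and in 28.3% of 27025 mouse promoters of the same length. TAACNG was found in the Mpo and Elane windows and in 23.2% of all promoters. TGCTGAC was found in the Elane window and in 4.58% of all promoters. The windows of the granule genes Prtn3 and Ctsg, not shown, held no match to TAACNG; both held 1 match to GAGGAA, and that of Ctsg also held 1 to TGCTGAC and 1 to TATAAA. The 4 windows shown held no match to TTGCNNAA, TGANTCA or TATAAA, which were in 10.8%, 7.93% and 14.2% of all promoters. A match describes letters in a window and is neither a bound site nor a cause.

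Genes for taking up dying cells and debris were mostly higher. In the efferocytosis list, of 20 measured members 14 were higher, 2 lower and 11 at 4-fold or more, with a median log2 difference of 2.71. Among all genes tested 28.4% were higher, 50.6% lower and 8.98% higher at 4-fold. Gas6, the bridging ligand of MERTK and AXL, read 1020, 813 and 1050 TPM against 0, 0.504 and 0.0188 TPM (log2 difference 9.70, adjusted p = 2.69e-11). Axl, one of its receptors, was higher by a log2 difference of 4.26 (adjusted p = 1.16e-08), and it was higher again in CCR2-high (log2 difference 2.07, adjusted p = 0.000235). The 2 lower members were the integrin chain Itgb3, with a log2 difference of −1.75, and Elmo1, an activator of Rac in engulfment, with −0.78. Among scavenger receptors 12 of 14 were higher, 11 at 4-fold, with a median of 6.70. Cd36, a receptor for fatty acids and oxidised lipoproteins, read 1200, 988 and 1510 TPM against 0.0753, 0 and 0.0124 TPM (log2 difference 10.21, adjusted p = 2.76e-12). Mrc1, the mannose receptor, and Msr1, scavenger receptor A, were higher by log2 differences of 8.74 and 6.99. Scarb1, the receptor for high-density lipoprotein, was the exception, lower, with a log2 difference of −1.84 (adjusted p = 1.55e-06).

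Lipid and iron genes showed a similar split, with most higher and a few lower. Of 22 lipid-handling genes 17 were higher (13 at 4-fold) and 4 lower (1 at 4-fold), with a median log2 difference of 2.39. Across all genes 28.4% were higher (8.98% at 4-fold) and 50.6% lower (8.99% at 4-fold). The lower count was 2 under TMM scaling and 2 without CCR2-low replicate 1, and the lower count at 4-fold was 2 without CCR2-low replicate 2. Pltp, the phospholipid transfer protein, read 1840, 1750 and 1820 TPM against 0, 0.0213 and 0.0571 TPM (log2 difference 10.78, SE 0.10, adjusted p = 3.88e-14), a wide gap with close replicates. Lpl, the lipase that releases fatty acids from lipoproteins, read 100, 197 and 141 TPM against 3.47, 2.26 and 1.65 TPM (log2 difference 5.39, adjusted p = 4.81e-08). Scd2, a fatty acid desaturase, was lower, at 3.5, 7.66 and 4.29 TPM against 125, 82 and 95 TPM (log2 difference −4.08, adjusted p = 8.62e-08). The other lower members were Srebf1, a regulator of lipid synthesis, and Fabp5 and Spp1, of which the last 2 did not pass under TMM scaling (adjusted p = 0.12 and 0.108). The cholesterol exporter Abcg1 passed under TMM scaling (log2 difference 0.63, adjusted p = 0.014) but not without it. Of 20 iron and haem genes 15 were higher (10 at 4-fold) and 2 lower, with a median of 2.20. Hmox1, haem oxygenase 1, read 895, 750 and 733 TPM against 3.75, 4.43 and 4.81 TPM (log2 difference 7.22, adjusted p = 1.78e-11). The iron exporter Slc40a1 was higher by a log2 difference of 3.77 and the ferritin heavy chain Fth1 by 2.42. Haptoglobin (Hp), a granule and plasma protein that binds haemoglobin, was lower, at 28.4, 84.2 and 20.8 TPM against 433, 411 and 487 TPM (log2 difference −3.55, adjusted p = 6.2e-06). In the lysosome list 28 of 32 were higher and 0 lower, 13 at 4-fold, with a median of 1.39. The cathepsins Ctsb and Ctsl were higher by log2 differences of 3.88 and 4.83.

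Most antigen presentation genes were higher in the macrophages. Of 15 MHC class II genes 11 were higher and 3 lower, with 9 higher and 1 lower at 4-fold and a median log2 difference of 2.39. All genes tested gave 28.4% higher and 50.6% lower, with 8.98% higher and 8.99% lower at 4-fold. Under TMM scaling 2 were lower, and the lower count at 4-fold was 0 there, without CCR2-low replicate 3 and without labelled monocyte replicate 1. H2-Eb1, a class II beta chain, read 4090, 3610 and 3670 TPM against 0.854, 0.647 and 1.12 TPM (log2 difference 10.99, adjusted p = 1.6e-12). Cd74 read 18200, 15800 and 16300 TPM against 5.87, 8.73 and 10.9 TPM (log2 difference 10.82, SE 0.20, adjusted p = 7.3e-12). Ciita, the transactivator that switches class II genes on, read 28.1, 28.1 and 27.5 TPM against 0.0788, 0.0415 and 0.0371 TPM (log2 difference 4.78, adjusted p = 2.5e-10). All 3 were far lower in each labelled monocyte library, with no overlap. H2-Oa, part of the H2-O modulator of peptide loading, was lower, with a log2 difference of −2.07 (adjusted p = 1.03e-06), and the promoter-binding factors Rfx5 and Rfxap were lower, with log2 differences of −0.98 and −0.47, the latter not called under TMM scaling (−0.11, adjusted p = 0.41). CCR2-high macrophages were higher than CCR2-low for 11 of the 15 (8.93% of all genes). Toll-like receptors and their partners were higher for 13 of 15 and lower for 0, with a median log2 difference of 2.72. Cd14, the co-receptor for lipopolysaccharide, was higher by a log2 difference of 6.68, Tlr7, which senses single-stranded RNA, by 5.44, and Tlr2, for bacterial lipoproteins, by 3.90. Fc receptors were higher for 7 of 8, the exception being Fcer1a, the IgE receptor alpha chain of basophils and mast cells (log2 difference −5.33, adjusted p = 6.22e-07).

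Of 22 transcription factors known in macrophages, 19 were higher, 12 at 4-fold, and 3 lower, with a median log2 difference of 2.24. Shares over all genes were 28.4%, 8.98% and 50.6% in the same order. Maf, a factor of differentiated macrophages, read 58.7, 39.4 and 60.2 TPM against 0.0502, 0.0727 and 0.0296 TPM (log2 difference 5.65, SE 0.18, adjusted p = 3.3e-10). Spi1, which encodes PU.1, the factor shared by all myeloid cells, read 220, 204 and 204 TPM against 182, 167 and 186 TPM. Its log2 difference of 0.23 (SE 0.08, adjusted p = 0.0267) was 0.61 under TMM scaling (adjusted p = 0.000115) and, unscaled, no longer passed without CCR2-low replicate 1 (adjusted p = 0.106), without labelled monocyte replicate 2 (adjusted p = 0.0923), with a replicate block (adjusted p = 0.0618) or without the intensity trend (adjusted p = 0.058). The 3 lower factors were Irf8, which drives monocyte development, Runx3 and Tfec. Irf8 read 46.9, 50.3 and 46.5 TPM against 215, 160 and 177 TPM (log2 difference −1.91, adjusted p = 5.47e-08), and Runx3 and Tfec were lower, with log2 differences of −3.21 and −2.14.

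**Figure D2:**
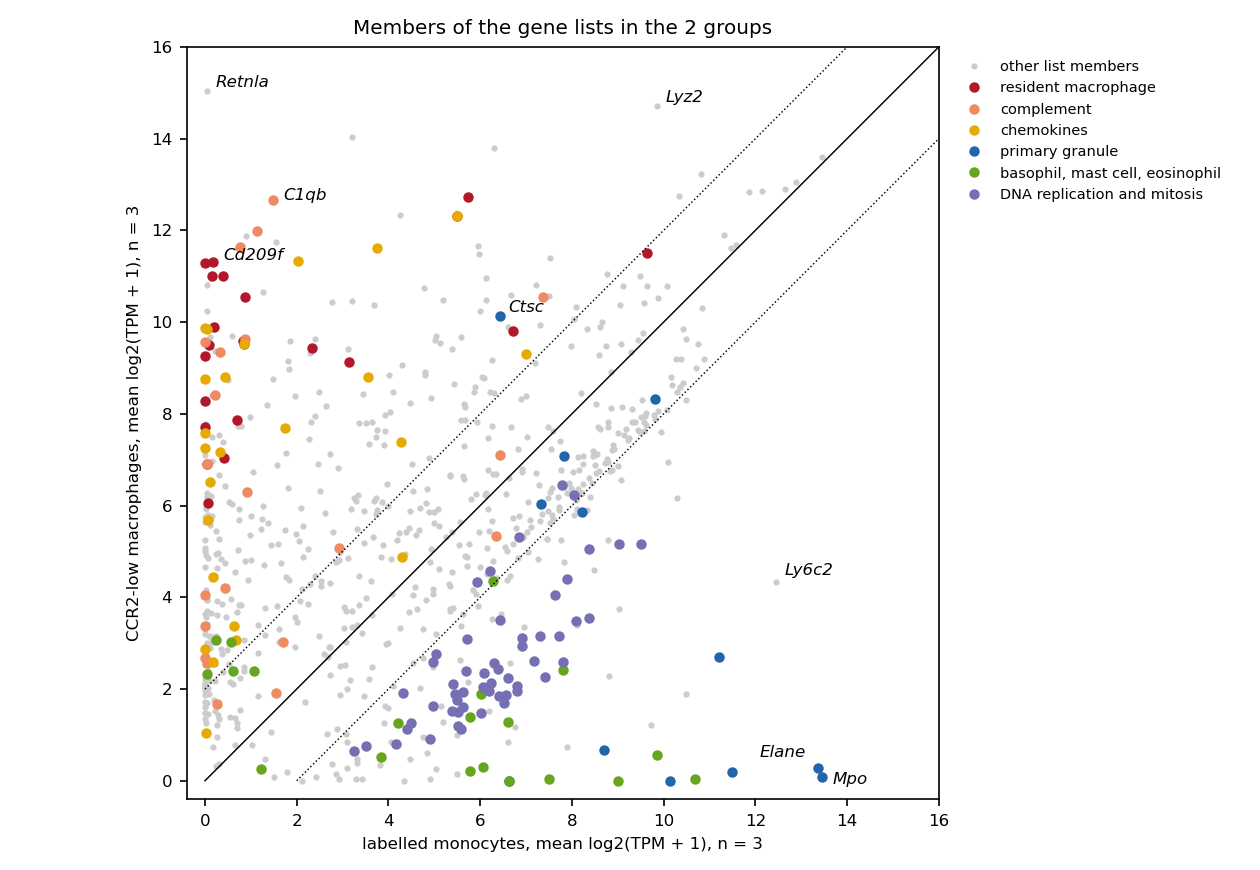
Mean log2(TPM + 1) of list members in the labelled monocyte libraries (x axis) and the CCR2-low libraries (y axis), coloured by list; each point is a gene, the solid line marks equal levels and the dotted lines a 4-fold difference. Most resident macrophage, complement and chemokine genes lie above the upper dotted line and most primary granule and replication genes below the lower one, with Ctsc of the granule list above.

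Chemokine, cytokine and early response transcripts were far higher in the macrophages. All 24 measured chemokines were higher, 22 at 4-fold, against 28.4% and 8.98% of all genes, with a median log2 difference of 6.18. The summed TPM of the list was 16000 to 17300 in the CCR2-low libraries and 225 to 257 in the labelled monocytes. Cxcl2, which attracts neutrophils, read 2500, 3090 and 2260 TPM against 4.49, 2.69 and 2.41 TPM (log2 difference 9.31, adjusted p = 6.33e-12). Ccl6 read 3370, 3000 and 3070 TPM against 12.2, 12.4 and 13.1 TPM (log2 difference 7.86, adjusted p = 1.72e-13), and Ccl2, the ligand of CCR2, was higher by a log2 difference of 8.38 (adjusted p = 5.02e-12). Ccl7, Ccl8, Ccl12 and Cxcl13 were listed at 0 in all labelled monocyte libraries and passed the filter through macrophage libraries alone. They are counted among the 24, and their direction was fixed in advance. The 2 short of 4-fold were Cxcl14 (log2 difference 1.02) and Cklf (0.59).

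Of 20 cytokine genes 18 were higher, 12 at 4-fold, and 2 lower, with a median log2 difference of 2.92. Over all genes tested 28.4% were higher, 8.98% at 4-fold, and 50.6% lower. Il1b read 145, 301 and 147 TPM against 0.434, 0 and 0.307 TPM (log2 difference 7.24, adjusted p = 1.85e-09), and Tnf read 238, 285 and 225 TPM against 6.21, 3.29 and 3.66 TPM (log2 difference 5.57, adjusted p = 4.99e-10). Il6 read 270, 533 and 262 TPM against 3.7, 3.21 and 2.02 TPM (log2 difference 6.43, adjusted p = 2.63e-09), and the anti-inflammatory Il10 read 27.3, 58.9 and 31.5 TPM against a listing of 0 in all 3. CCR2-low replicate 2 was the highest of its group for all 4 of these. The lower members were Csf1 (log2 difference −1.09) and Tgfb1 (−0.52), of which Tgfb1 was not called under TMM scaling (−0.13, adjusted p = 0.162). Among growth factors 9 of 15 were higher, all of them at 4-fold, and 5 lower (2 under TMM scaling, where Vegfb turned to 0.01), with a median of 4.73. Igf1, a trophic hormone, read 72.2, 73.8 and 84.8 TPM against 0.00597, 0.0275 and 0.0542 TPM (log2 difference 6.24, adjusted p = 3.91e-12). Vegfa, the endothelial growth factor, was lower, with a log2 difference of −1.18 (adjusted p = 0.00478).

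All 22 immediate early and stress genes, which respond within minutes to stimuli, cell isolation included, were higher at 4-fold (8.98% of all genes), with a median of 4.80. Fos read 2220, 1780 and 1970 TPM against 81.6, 66.1 and 61.1 TPM (log2 difference 4.82, adjusted p = 8.64e-11). Atf3 read 813, 878 and 775 TPM against 0.119, 0.0823 and 0.0492 TPM (log2 difference 9.57, adjusted p = 3.88e-14), and the heat shock gene Hspa1a, which shares reads with Hspa1b, was higher by a log2 difference of 4.77. Their summed TPM was 18200 to 20500 in the CCR2-low libraries, 547 to 752 in the labelled monocytes and 18600 to 21200 in the CCR2-high macrophages. The part of early response transcripts in the chemokine and cytokine differences was not tested. Feedback genes of NF-kB were higher for 15 of 17 (28.4% of all genes), 14 at 4-fold, with a median of 2.81. The inhibitor Nfkbia was higher by a log2 difference of 4.37 and Tnfaip3 (A20) by 5.18, while Nfkb1 and Tnip1 were lower, with log2 differences of −1.08 and −0.88. CCR2-low replicate 2 was the highest of the 3 for 16 of the 17, against 35.4% of all genes.

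Genes typical of large peritoneal macrophages were also present in the CCR2-low libraries. Of 17 measured members (of 18 listed) 15 were higher, 11 at 4-fold, and 1 lower, with a median log2 difference of 3.08. Among all genes tested 28.4% were higher, 8.98% at 4-fold, and 50.6% lower. Gata6, the transcription factor that sets the identity of these cells, read 5.47, 11.5 and 4.39 TPM and was listed at 0 in all 3 labelled monocyte libraries (adjusted p = 2.83e-06). Saa3, an acute phase serum amyloid, read 883, 7380 and 636 TPM against 1.11, 1.23 and 1.93 TPM (log2 difference 9.39, SE 0.80, adjusted p = 9e-07). Prg4, the lubricating proteoglycan lubricin, read 316, 607 and 205 TPM against 0.111, 0.0636 and 0.148 TPM (log2 difference 8.27, SE 0.34, adjusted p = 2.91e-09). Replicate 2 was the highest of the 3 CCR2-low libraries for each of these, and for 15 of the 17 members, where 35.4% of all genes were highest in that replicate. Alox15, a lipoxygenase, read 458, 1050 and 387 TPM against 3.25, 2.46 and 1.89 TPM (log2 difference 7.35, adjusted p = 6.86e-09). Enpep, the aminopeptidase A, ran the other way within the group, at 69.7, 29.4 and 71 TPM. The lower member was Cd93, with a log2 difference of −0.74 (adjusted p = 0.00127). Without replicate 2 the counts were 15 higher, 11 of them at 4-fold, and 1 lower. In the CCR2-high libraries 15 of the 17 were lower than in CCR2-low (8.74% of all genes) and 1 was higher.

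**Figure D3:**
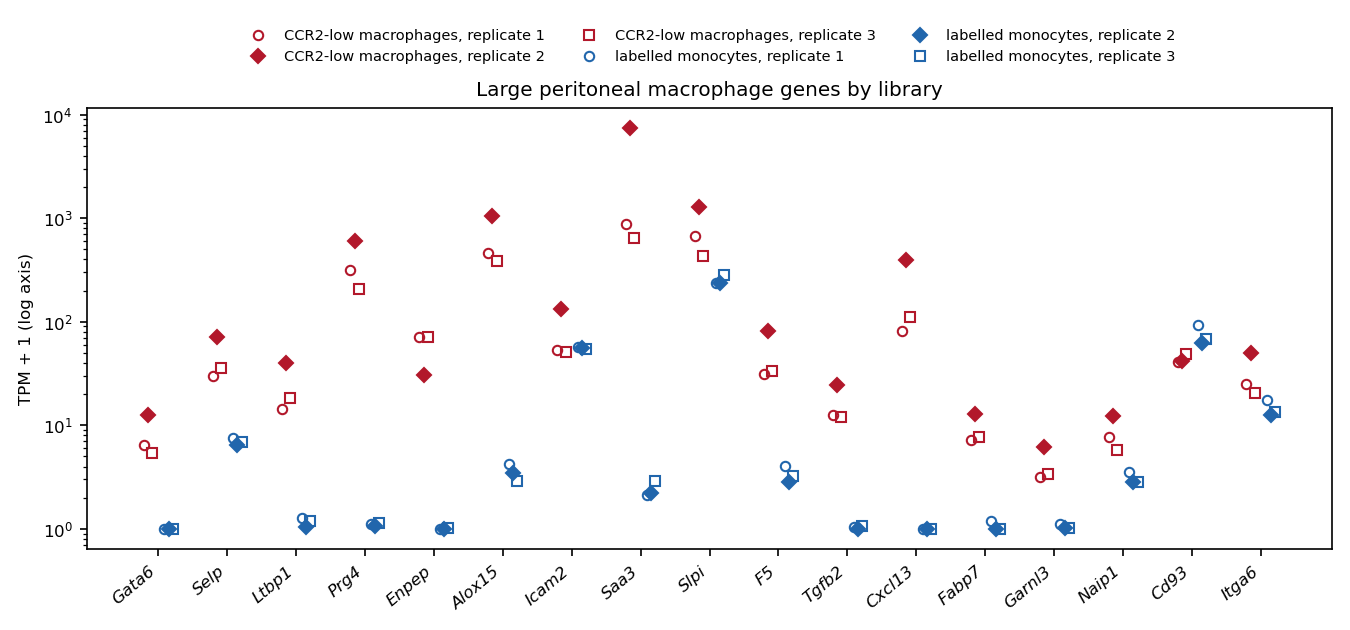
Level of the 17 measured large peritoneal macrophage genes in each CCR2-low and labelled monocyte library, as TPM + 1 on a log axis; each symbol is a library and the filled diamond is CCR2-low replicate 2. Replicate 2 is the highest CCR2-low library for 15 genes, by the widest margin for Saa3 at 7380 TPM, and the lowest for Enpep at 29.4 TPM.

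In the opposite direction the primary granule genes led. Of 12 members 11 were lower in CCR2-low macrophages, 8 at 4-fold, and 1 higher, with a median log2 difference of −7.33 against −0.40 over all genes. The shares over all genes were 50.6% lower, 8.99% at 4-fold, and 28.4% higher. Mpo (chr11:87793581-87804413) read 0.0762, 0.0607 and 0.0151 TPM in the CCR2-low libraries and 12800, 9700 and 11300 TPM in the labelled monocytes (log2 difference −13.38, SE 0.11, adjusted p = 3.88e-14). Prtn3, proteinase 3 (chr10:79874476-79883174, beside Elane), read 4.73, 12.7 and 2.54 TPM against 2110, 2330 and 2640 TPM (log2 difference −8.49, SE 0.41, adjusted p = 1.06e-08). Ctsg, cathepsin G (chr14:56099881-56102574), read 0, 0 and 0.517 TPM against 2740, 2790 and 3150 TPM (log2 difference −11.30, SE 0.17, adjusted p = 1.91e-12). The transcripts of Mpo, Elane and Ctsg were below 1 TPM in each CCR2-low library, and Prtn3 was highest of that group in replicate 2. Ms4a3, a gene of granulocyte and monocyte progenitors, was listed at 0 in all 3 CCR2-low libraries and read 1030, 1090 and 1290 TPM in the labelled monocytes (adjusted p = 2.94e-13). Ctsc, the peptidase that activates these proteases, was the single higher member, at 1200, 922 and 1290 TPM against 98.1, 77.7 and 81.2 TPM (log2 difference 3.71, SE 0.14, adjusted p = 1.78e-09). Cst7, an inhibitor of that peptidase, was lower, with a log2 difference of −8.02. The summed TPM of the list was 27600 to 33000 in the labelled monocytes, 1560 to 1870 in the CCR2-low and 1690 to 1800 in the CCR2-high macrophages.

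Regulators of progenitors were lower in the same way, 17 of 17 measured members, 12 at 4-fold, with a median of −3.06. Across all genes 50.6% were lower, 8.99% at 4-fold. Under TMM scaling 14 regulators passed, none was called higher, and Lmo2 turned to 0.05. Myb, a factor of dividing blood progenitors, read 0.488, 0.839 and 0.666 TPM against 281, 213 and 218 TPM (log2 difference −7.15, SE 0.16, adjusted p = 1.9e-11). Cd34, the progenitor surface sialomucin, read 7.61, 7.6 and 15 TPM against 336, 257 and 238 TPM (log2 difference −4.70, adjusted p = 1.03e-08). Kit, the receptor for stem cell factor, read 0.519, 1.58 and 1.87 TPM against 147, 85 and 97.3 TPM (log2 difference −5.58, adjusted p = 9.73e-09). For all 3 the groups were far apart. Gfi1 and Cebpe, factors of granulocyte development, were lower, with log2 differences of −5.37 and −3.93.

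**Figure D4:**
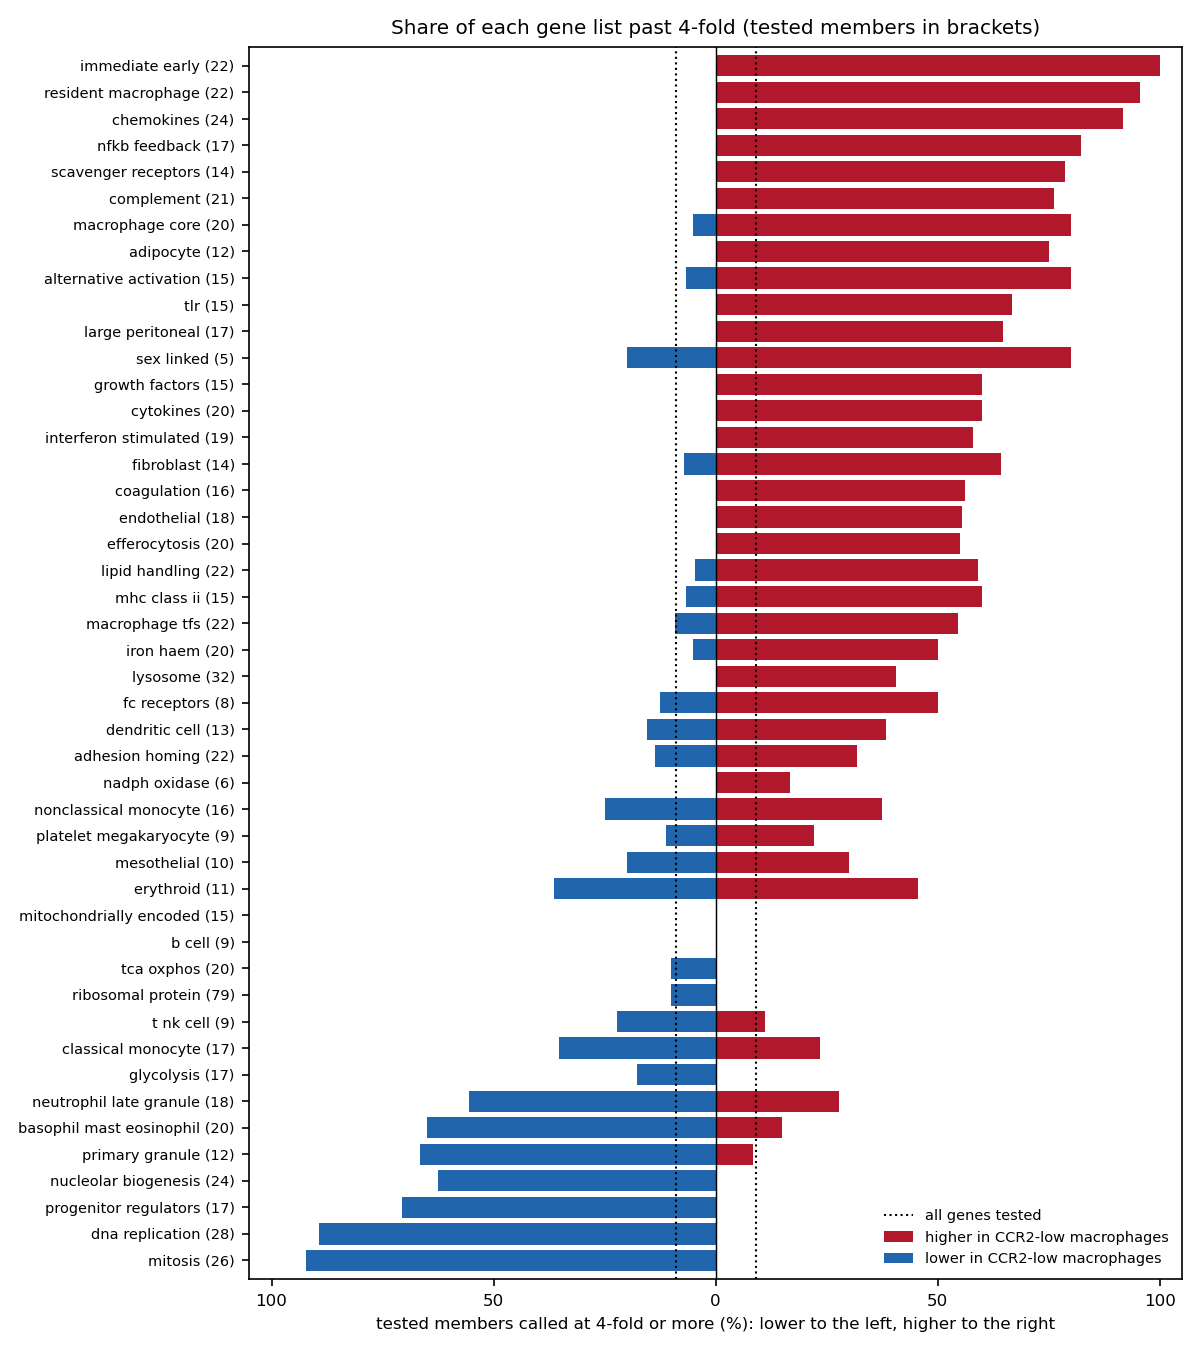
Share (%) of the measured members of each gene list with at least 5 measured members that were called at 4-fold or more, higher in CCR2-low to the right and lower to the left. The dotted lines mark the share over all 15467 genes, 8.98% higher and 8.99% lower; immediate early genes reach the full right end, and mitosis and DNA replication genes lie far left.

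Late neutrophil genes were lower for 11 of 18 measured members and higher for 5, against 50.6% lower and 28.4% higher over all genes tested. At 4-fold 10 were lower (9 under TMM scaling) and 5 higher, against 8.99% and 8.98%. The median log2 difference was −2.41. Ngp, a protein of secondary granules, read 0.0429, 0 and 0.0426 TPM against 54.6, 15.2 and 29.3 TPM (log2 difference −4.87, adjusted p = 1.64e-07). S100a8, a calcium-binding alarmin subunit, read 1.86, 5.3 and 5.42 TPM against 357, 423 and 604 TPM (log2 difference −6.53, adjusted p = 1.61e-07). In the labelled monocytes these levels were a small fraction of those of Mpo. Lcn2, lipocalin 2, read 0.499, 19.9 and 1.3 TPM against 18.8, 12.8 and 17.2 TPM and did not pass (adjusted p = 0.137), but passed without CCR2-low replicate 2 (log2 difference −3.20, adjusted p = 0.0202). The 5 higher members were Mmp9 (gelatinase B, log2 difference 7.28), Padi4 (3.21), the formyl peptide receptors Fpr1 (3.10) and Fpr2 (2.41), and Retnlg (2.15).

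Basophil, mast cell and eosinophil genes were lower for 15 of 20 measured members, 13 at 4-fold, with a median log2 difference of −4.25. Over all genes tested 50.6% were lower, 8.99% at 4-fold. Mcpt8, the basophil protease, was listed at 0 in all 3 CCR2-low libraries and read 466, 488 and 584 TPM in the labelled monocytes (adjusted p = 1.23e-12). Prg2, the major basic protein of eosinophil granules, read 0, 0 and 0.0618 TPM against 1620, 1380 and 1960 TPM (log2 difference −10.65, adjusted p = 7.21e-13). Cpa3, the mast cell and basophil carboxypeptidase, read 0.0359, 9.59 and 12.7 TPM against 254, 221 and 196 TPM (log2 difference −5.39, adjusted p = 5.66e-05). CCR2-low replicate 1 was the lowest of its group for Cpa3, and the same held for the connective tissue mast cell proteases Tpsb2, Cma1 and Mcpt4, which were the members higher at 4-fold. Tpsb2 read 0.193, 20.3 and 22.2 TPM against 0, 0.655 and 0 TPM (log2 difference 2.82, adjusted p = 0.0143) and Cma1 was higher by a log2 difference of 2.46 (adjusted p = 0.0179). Neither passed without CCR2-low replicate 2 (adjusted p = 0.0551 and 0.0703), without CCR2-low replicate 3 (0.0574 and 0.064) or without labelled monocyte replicate 1 (0.0514 and 0.0559). The higher members at 4-fold were 3 in all, 1 without CCR2-low replicate 2 or labelled monocyte replicate 1, and 0 without CCR2-low replicate 3.

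Genes of the 2 classes of blood monocyte were split. In the classical list 7 of 17 measured members were higher and 8 lower, against 28.4% and 50.6% of all genes tested. The median log2 difference was −0.42, against −0.40 over all genes. Ly6c2, the Ly6C antigen of classical monocytes and of marrow progenitors, whose reads may be shared with Ly6c1, read 20, 18.9 and 18.9 TPM against 5550, 5130 and 6280 TPM (log2 difference −8.12, SE 0.21, adjusted p = 6.73e-11). Plac8 read 3.54, 3.34 and 1.63 TPM against 1210, 1540 and 1560 TPM (log2 difference −8.58, adjusted p = 3.13e-11). Both separated the groups with the labelled monocytes high. Fn1 (fibronectin) was higher in the macrophages, at 368, 1410 and 511 TPM against 4.8, 3.34 and 3.66 TPM (log2 difference 7.04, adjusted p = 2.13e-08), again with replicate 2 the highest of its group. In the nonclassical list 9 of 16 were higher and 4 lower, with a median of 1.45. Nr4a1, the nuclear receptor on which nonclassical monocytes depend and itself an early response gene, read 709, 1170 and 694 TPM against 0.669, 0.506 and 0.375 TPM (log2 difference 9.11, adjusted p = 1.51e-11). Spn, the CD43 sialophorin, was lower, with a log2 difference of −4.49 (adjusted p = 4.33e-10). Treml4, a receptor of nonclassical monocytes, was below 1 TPM in these 6 libraries, at 0.287, 0.416 and 0.0778 TPM against 0.0889, 0.136 and 0.342 TPM, and did not pass.

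Genes of cell division were lower in the CCR2-low macrophages. All 28 DNA replication genes were lower, 25 at 4-fold, with a median log2 difference of −3.56. All 26 mitosis genes were lower, 24 at 4-fold, with a median of −4.01. Of all genes tested 50.6% were lower, 8.99% at 4-fold. Mcm2, part of the replicative helicase, read 9.99, 10.4 and 10 TPM against 330, 244 and 254 TPM (log2 difference −4.62, adjusted p = 2.96e-10). Mki67, the proliferation antigen Ki-67, read 6.92, 9.42 and 6.38 TPM against 60.3, 48 and 46.2 TPM (log2 difference −2.62, adjusted p = 6.31e-08). Top2a, topoisomerase II alpha, read 2.96, 3.37 and 5.14 TPM against 118, 87.9 and 87.5 TPM (log2 difference −4.37, adjusted p = 1.86e-08). The groups were apart for each, and the CCR2-low libraries were not at 0. CCR2-low replicate 3 was the highest of its group for 20 replication and 21 mitosis genes, against 39.2% of all genes, and labelled monocyte replicate 1 for 27 and 20, against 66.1%. Leaving out either library changed none of these counts of lower genes. CCR2-high macrophages were higher than CCR2-low for 21 of the replication and 19 of the mitosis genes (8.93% of all genes).

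Genes for making ribosomes and for energy followed the same direction. All 24 nucleolar genes were lower, 15 at 4-fold (9 under TMM scaling), and among them the rRNA chaperone Npm1 had a log2 difference of −2.52 and nucleolin, Ncl, one of −1.81. All 79 ribosomal protein genes were lower, with a median of −1.62, and 75 were lower under TMM scaling, where the median was −1.24. Of all genes tested 50.6% were lower (41% under TMM scaling), with a median of −0.40 (−0.07). At 4-fold 8 of the 79 were lower (0 under TMM scaling), near the 8.99% of all genes (5.83% under TMM scaling). In glycolysis 15 of 17 were lower, 3 at 4-fold (1 under TMM scaling), with a median of −1.51. Pgam1, phosphoglycerate mutase, read 114, 144 and 110 TPM against 1160, 1030 and 1080 TPM (log2 difference −3.16, adjusted p = 6.96e-09). The 2 higher glycolysis genes were Pfkfb3 (log2 difference 1.75) and Pfkfb4 (1.92), which make the activator of phosphofructokinase. All 20 nuclear genes of the citric acid cycle and respiration were lower (19 under TMM scaling), 2 at 4-fold, with a median of −1.24. Of 15 genes encoded in mitochondrial DNA 7 were higher and 0 lower, and under TMM scaling all 15 were higher.

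Markers of other cells that a sort could hold were measured as well. The endothelial list summed to 926 to 958 TPM in the CCR2-low libraries, 54.9 to 76.1 TPM in the labelled monocytes and 321 to 518 TPM in the CCR2-high libraries, with 15 of 18 members higher and 1 lower; the lipid binding gene Fabp4, which macrophages make too, is in this sum. Cdh5, the endothelial cadherin, read 4.52, 5.51 and 6.3 TPM against 0, 0 and 0.0245 TPM, whereas Pecam1 (CD31), which leukocytes carry too, was the lower member, at 6.45, 8.21 and 13.5 TPM against 30.7, 23 and 25.1 TPM (log2 difference −1.44, adjusted p = 0.000176). The adipocyte list summed to 927 to 1060 TPM against 98 to 130 TPM, with 9 of 12 higher and 2 lower (1 under TMM scaling), and the fibroblast list to 424 to 582 TPM against 112 to 131 TPM, with 9 of 14 higher and 3 lower. Adipoq, the hormone adiponectin, read 11.1, 4.91 and 8.29 TPM against 0.129, 0.197 and 0 TPM, and Dcn, the fibroblast proteoglycan decorin, 44.2, 77.5 and 62.8 TPM against 0, 0.0261 and 0 TPM. The levels of Cdh5, Adipoq and Dcn did not overlap and were small beside that of the highly abundant C1qb. Car3, another member of the adipocyte list, read 149, 91.7 and 121 TPM against 5.53, 4.52 and 3.75 TPM. That was above the core macrophage gene Mertk, at 67.2, 73.8 and 75.2 TPM in the CCR2-low libraries. The mesothelial list summed to 459 to 1310 TPM against 308 to 375 TPM, with 7 of 10 higher and 2 lower. At 4-fold 3 were higher (1 without CCR2-low replicate 1) and 2 lower (1 under TMM scaling), the lower ones being Cldn15 (log2 difference −3.74) and Krt18 (−2.29). Its defining marker Msln (mesothelin) read 1.41, 2.22 and 1.76 TPM against a listing of 0 in all 3. Msln, Upk3b and Krt19 were at 0 in all labelled monocyte libraries and passed the filter through macrophage libraries alone. Their direction was therefore fixed in advance, and with a filter of 5 TPM the list median was −0.39 (1.49 at 1 TPM). The erythroid list summed to 2240 to 2920 TPM against 226 to 258 TPM, led by the globins: Hbb-bs, whose reads may be shared with Hbb-bt, read 493, 573 and 401 TPM against 24.9, 30.4 and 25.6 TPM, while the red cell factor Klf1 was lower (log2 difference −2.40). The B cell list summed to 549 to 926 TPM against 449 to 524 TPM, with 6 of 9 higher and 1 lower (2 without CCR2-low replicate 3). Cd79a and Cd79b, partners in the B cell receptor, went opposite ways. Cd79a read 13.8, 5.79 and 8.71 TPM against 1.95, 1.64 and 2.75 TPM, and Cd79b read 13.6, 13.9 and 7.93 TPM against 47.1, 47.4 and 50.3 TPM (log2 difference −1.98, adjusted p = 2.38e-06). The T and NK list summed to 20 to 32.2 TPM against 789 to 981 TPM, nearly all of it Nkg7, a granule protein, at 782, 809 and 974 TPM in the labelled monocytes. Of the platelet list 2 of 9 were higher and 5 lower, and of the dendritic cell list 9 of 13 were higher and 3 lower. Over all genes tested 28.4% were higher and 50.6% lower. The defining markers Plin1 of adipocytes, Pdgfra of fibroblasts and Cd3e of T cells did not reach the filter, and Cd3e read 0.618, 0.956 and 0.793 TPM in the CCR2-low libraries. The part of these cells in the differences above was not tested.

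**Figure D5:**
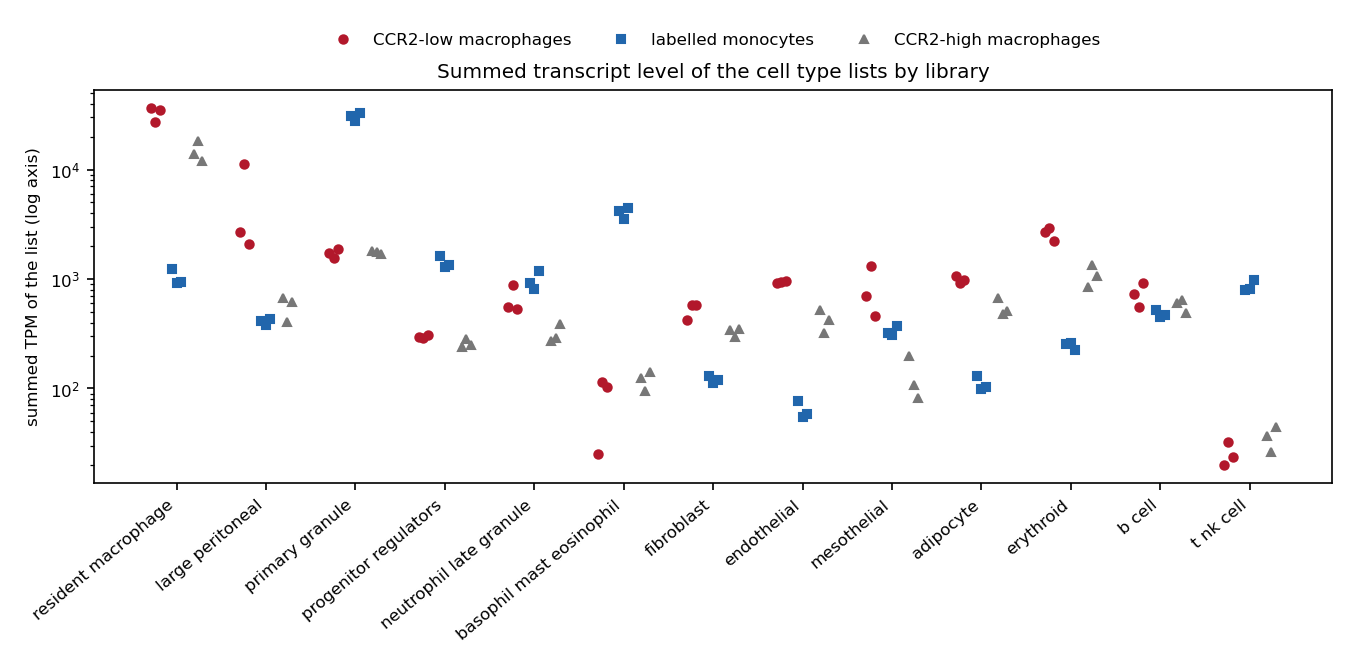
Summed TPM of 13 cell type marker lists in each library on a log axis, with a point per library and colours for CCR2-low, labelled monocyte and CCR2-high libraries. The resident macrophage sum is 27200 to 36400 TPM in CCR2-low against 912 to 1230 TPM in labelled monocytes, and the primary granule sum is 1560 to 1870 TPM against 27600 to 33000 TPM. The granule sum includes Ctsc, the member higher in CCR2-low, at 1200, 922 and 1290 TPM there.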

How the data were processed

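The authors deposited 1 table of TPM values for 28347 genes in 9 steady-state libraries, per the file headers; every column summed to 1000000. The genome build is mm10 (credited to the submitters' processing notes); which aligner and counter were used is not stated in the sources here. The authors' own fold changes and adjusted p-values were not used, nor were the libraries after infarction or no infarction, which stand in another table.

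Genes at 1 TPM or more in at least 3 of 9 libraries were fitted as log2(TPM + 1), with a pseudocount of 1, in limma 3.58.1 (R 4.3.3; lmFit, contrasts.fit, eBayes with an intensity trend) over all 3 groups without covariates. A gene was called at a Benjamini-Hochberg adjusted p below 0.05 over 15467 genes, and at 4-fold when the log2 difference was also 2 or more in size. TMM factors were computed on TPM with 30% of log ratios and 5% of abundances trimmed. On simulated data with known changes the fit was tested before use. Of the gene IDs, 27754 matched GENCODE M21, which gave the coordinates; promoter windows came from RefSeq.

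Genes were named by rule: the sort markers, the 4 markers of the comparison, the 10 widest differences in each direction at 50 TPM or more, the first 4 members of each list, up to 2 members against a list's direction, and the 5 most abundant genes per group. Other members were named after their values were seen. The members and all 47 lists (909 entries, 906 in the table) were chosen with earlier results of these data known. Alternatives were TMM, median-of-ratios and top-gene-free scaling, pseudocounts of 0.1 and 5, no filter or 5 TPM, the 6 libraries alone, a replicate block, robust and untrended variance, each replicate left out, and, chosen after seeing the data, X and Y genes left out. Low TPM values carry unknown counting error.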

Additional observations from a re-analysis of the deposited data

How the results depend on the processing

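The count of 12225 called genes lay between 11740 and 12108 with 1 replicate left out (4098 to 4601 higher, 7463 to 7749 lower), and that of 2780 at 4-fold between 2751 and 2803 (1356 to 1444 higher, 1325 to 1421 lower). Of 212 named genes tested, 197 to 199 were called (199 with all libraries), against 79% of all genes. Some of them were named because they were called, so this count was partly fixed in advance. Lists with a median above 0 were 34 to 36 (35 with all). Named genes called between the macrophage subsets were 87 to 107 (106 with all), against 17.7% of all genes. The pseudocount and the scaling moved the 4-fold counts most among the settings tried. A pseudocount of 0.1 gave 2226 higher at 4-fold, and one of 5 gave 1456 in all, 743 higher and 713 lower. Lower genes at 4-fold were 902 under TMM scaling and 838 under median-of-ratios scaling. With X and Y genes left out, 4234 were higher and 7462 lower, with 1336 and 1341 at 4-fold.

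The replicate block gave 4269 higher and 7625 lower genes, with 1389 and 1391 at 4-fold; of the named genes it ended the call of Spi1 and changed no other. Whether replicate numbers pair the samples is not stated. Deviations from the group means correlated at −0.192, −0.0412 and −0.111 for same-numbered libraries and at −0.111 to 0.17 for the others. Deviations within a group of so few libraries depend on each other, so this check could not decide pairing.

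Directions that turned were few, and the cause was not tested. Itga4 (log2 difference −0.01) read 0.35 under TMM, 0.41 under median-of-ratios and 0.20 under top-gene-free scaling, and −0.13 to 0.19 with 1 replicate left out (0.19 without CCR2-low replicate 1, 0.13 without labelled monocyte replicate 1). Ncf1 (−0.19) read 0.19, 0.26 and 0.03 under those 3 scalings. Median-of-ratios scaling alone turned Itgb7 (0.04), Gm23935 (0.00) and Gm24270 (0.04), and leaving out CCR2-low replicate 2 turned Treml4 (−0.01). List medians turned for classical monocytes without CCR2-low replicate 3 (0.17, in a range of −0.99 to 0.17 with 1 replicate left out), for adhesion without CCR2-low replicate 2 (−0.04, in a range of −0.04 to 0.39), and with a filter of 5 TPM for platelets (0.31), T and NK cells (−2.79) and mesothelium (−0.39). Read depth, which TPM does not keep, limits what low values show.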

Other observations

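Further lists described other traits of the macrophages. Of 15 genes of alternative activation 13 were higher in CCR2-low (28.4% of all genes), 12 at 4-fold (8.98% of all genes). Arg1, arginase 1, read 27, 79.8 and 24.6 TPM against 0.361, 0.148 and 0.198 TPM (log2 difference 4.97, adjusted p = 4.64e-07) and was highest in CCR2-low replicate 2. The exception was Chil3, the chitinase-like protein Ym1, at 0.288, 11.7 and 0.413 TPM against 77.1, 53 and 90 TPM (log2 difference −4.67, SE 0.69, adjusted p = 7.83e-05). Interferon-stimulated genes were higher for 17 of 19, 11 at 4-fold, with Isg15, a ubiquitin-like modifier, higher by a log2 difference of 3.83 and Ifit1 by 3.42. Coagulation genes were higher for 13 of 16 and lower for 0 (1 without labelled monocyte replicate 2). Thbs1, thrombospondin 1, read 127, 498 and 149 TPM against 0.38, 0.403 and 1.29 TPM (log2 difference 7.02, adjusted p = 6.13e-08), with replicate 2 the highest of its group, and the higher members at 4-fold were 9, or 7 without that replicate.

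Of 10 listed genes for handling catecholamines, the transmitters of sympathetic nerves, 9 were in the data and 4 reached the filter. All 4 were higher (28.4% of all genes). Among them Adrb1 was listed at 0 in all labelled monocyte libraries and passed the filter through macrophage libraries alone, so its direction was fixed in advance. Maoa, the oxidase that breaks down noradrenaline, read 40.8, 25.7 and 43 TPM against 11.6, 9.11 and 9.67 TPM (log2 difference 1.73, adjusted p = 6.06e-05). Adhesion and homing genes were split, with 10 of 22 higher and 6 lower (9 lower without CCR2-low replicate 2). Over all genes tested 28.4% were higher and 50.6% lower. Ccr1, a receptor for inflammatory chemokines, was higher by a log2 difference of 5.54, and Itgal, the CD11a integrin chain of LFA-1, was lower, with a log2 difference of −3.58. Of 6 NADPH oxidase genes 3 were higher and 2 lower (1 under TMM scaling or without CCR2-low replicate 3).

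Neighbouring genes differed in direction at 2 loci chosen after their values were seen. On chromosome 10, Elane ends at 79888215 and Cfd, the complement serine protease factor D, spans chr10:79890853-79892655 (mm10). Cfd read 115, 49.1 and 81.9 TPM in the CCR2-low libraries and 1.47, 0.944 and 0.423 TPM in the labelled monocytes (log2 difference 5.37, adjusted p = 2.44e-08), whereas Prtn3 and Elane on its other side were lower. The CCR2-low libraries also held transcripts of the adipocyte list, such as Car3 at 149, 91.7 and 121 TPM. The part of adipocyte RNA in the Cfd level was not tested. The Ms4a cluster of chromosome 19, a family of membrane proteins, held 14 genes in the data, of which 11 reached the filter. Of these 6 were higher and 5 lower, against 28.4% and 50.6% of all genes. Ms4a8a read 121, 109 and 100 TPM against 0.0547, 0.101 and 0 TPM, and Ms4a7, a macrophage member, 75.7, 76.3 and 78.2 TPM against 0.0133, 0.0856 and 0 TPM. Ms4a3 and Ms4a2, the latter the beta chain of the IgE receptor, were high only in the labelled monocytes among the 3 groups, Ms4a2 at 0, 0.44 and 0.313 TPM against 86.3, 64.2 and 50.8 TPM.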
